A study of Mus musculus with 3 samples.

Results

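Filamins A and C (Flna, Flnc), α-actinins 1 and 4 (Actn1, Actn4), fascin (Fscn1), T-plastin (Pls3), L-plastin (Lcp1), ezrin (Ezr) and moesin (Msn) are the genes described here. They were taken by gene symbol, and 9 of 9 were found among the 46603 Ensembl genes of the count tables. Transcripts of all 9 were measured by RNA-Seq of polyadenylated RNA in 3 libraries of KO-actin mouse embryonic fibroblasts (MEFs). KO-actin cells are β-actin knockout fibroblasts into which β-actin with an NLS tag (a nuclear localization signal) was reintroduced, a genotype labelled Beta-actin KO-NLS. The wider study asked how β-actin levels relate to genome organization and transcription. All 3 libraries share this genotype, so the comparisons below are between genes and between replicates, and wild-type and knockout cells without the transgene were not analysed here. The labels do not say whether the replicates came from separate cultures, and whether the cells descend from 1 clone is not given in the sources used here. The p-values below for differences between replicates therefore measure the spread between these libraries, which may be technical. Those for pairs of genes ask only whether a ratio differed from 1 over these libraries.

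Actin filaments become networks and bundles through proteins that hold filaments side by side or at an angle. Filamins are long dimers that join filaments at wide angles and also bind integrin tails, α-actinins are antiparallel dimers of stress fibres and focal adhesions, fascin packs filaments into the tight bundles of filopodia, and plastins (fimbrins) bundle through tandem actin-binding domains within the same chain. Ezrin, radixin and moesin (the ERM proteins) link filaments to the plasma membrane once phosphorylation opens the molecule, and in fibroblasts these proteins shape stress fibres, protrusions and the cell cortex.

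Promoter windows are shown for Fscn1, which had the highest level of the 9 genes per kilobase, for Lcp1, which had the lowest, and for Pls3, the plastin paralog of Lcp1. Each window is the 250 bases before a transcript start, from RefSeq on GRCm38.p6. Capitals mark GC boxes (GGGCGG, or CCGCCC for the other strand) and TATA boxes (TATAAA), and both strands were searched with overlapping matches counted. Fscn1 lies on the plus strand at chr5:142960105-142960354. The Lcp1 windows lie on the plus strand at chr14:75130873-75131122 and chr14:75136175-75136424. The Pls3 window, the second of 3, lies on the minus strand at chrX:75875171-75875420.
Fscn1: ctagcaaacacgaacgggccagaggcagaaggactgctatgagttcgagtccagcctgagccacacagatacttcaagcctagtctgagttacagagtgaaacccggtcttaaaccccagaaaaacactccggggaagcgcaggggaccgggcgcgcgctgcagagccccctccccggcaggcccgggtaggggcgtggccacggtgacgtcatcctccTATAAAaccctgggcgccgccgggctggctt
Lcp1 window 1: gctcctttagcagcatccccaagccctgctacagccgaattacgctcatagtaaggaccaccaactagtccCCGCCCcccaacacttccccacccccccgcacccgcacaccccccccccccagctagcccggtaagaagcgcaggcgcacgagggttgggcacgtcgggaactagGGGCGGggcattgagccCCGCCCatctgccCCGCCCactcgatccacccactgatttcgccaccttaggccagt
Lcp1 window 2: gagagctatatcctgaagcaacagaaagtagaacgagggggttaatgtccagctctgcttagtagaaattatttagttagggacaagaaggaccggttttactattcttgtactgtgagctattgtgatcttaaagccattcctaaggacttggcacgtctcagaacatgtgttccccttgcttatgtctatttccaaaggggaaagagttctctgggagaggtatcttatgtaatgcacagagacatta
Pls3 window 2: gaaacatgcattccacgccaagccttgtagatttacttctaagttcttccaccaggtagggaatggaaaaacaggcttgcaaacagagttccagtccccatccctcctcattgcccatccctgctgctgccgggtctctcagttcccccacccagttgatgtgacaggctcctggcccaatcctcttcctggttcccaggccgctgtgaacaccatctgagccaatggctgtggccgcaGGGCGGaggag

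The Fscn1 window held a TATA box close to the start and no GC box, which made Fscn1 the only one of the 9 genes without a GC box in any window and the only one with a TATA box. GC boxes were found in 8 of 9 genes, in the case of Pls3 only in the window shown. Counted by window, they were in 9 of the 13 windows of these genes, some of which overlap each other, against 32.7% of 32841 promoter windows of the same length. TATAAA was found in 1 of the 13 and in 12.4% of all windows. The CArG box, the motif bound by serum response factor, was found in 0 of the 13 windows and in 1.47% of all windows, which says only that these letters are not in these windows. The first Lcp1 window had a GC content of 66.0% with 16 CpG dinucleotides and 4 GC boxes. The second, 5324 bases from the annotated 5′ end of the gene, had a GC content of 41.6% with 3 CpG. The Fscn1 window had 62.4% GC with 18 CpG, and the Pls3 window shown had 56.4% with 5. Over all windows the median GC content was 52.4%, with a median of 6 CpG. Thus the window at the 5′ end of the gene with the lowest level was richer in CpG than that of Pls3.

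Library totals were 49932446, 49587453 and 44383636 counts for replicates 1, 2 and 3. Values are given as CPM, the usual depth-scaled count, with library sizes scaled by the trimmed mean of M-values (TMM), and, where genes are compared with each other, as CPM per kilobase, which divides CPM by the length of all exon bases of the gene. Errors are SDs over n = 3 libraries. Replicate 2 stood apart, since the chi-square of counts over 13814 genes, divided by its degrees of freedom, was 11.1 between replicates 1 and 2 and 10.6 between 2 and 3, against 3.72 between 1 and 3. Actb, the deleted gene, had 53814, 54883 and 47505 counts, or 405 ± 8.65 CPM per kilobase, and reads of the transgene and of the endogenous locus cannot be told apart in these tables. Of 10 fibroblast markers, 9 had a mean of at least 1 CPM, led by Vim at 4562 ± 226 CPM, Col1a1 at 4057 ± 252 CPM and Fn1 at 3578 ± 15.0 CPM, whereas Fap had 0, 0 and 1 counts.

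All 9 genes had a mean of at least 1 CPM, and their levels spanned 0.454 to 556 CPM per kilobase with a median of 159. The 13814 tested genes, which reached 10 counts in each library, had a median of 5.88 CPM per kilobase. Together the 9 genes held 9946 ± 205 CPM, or 0.995% ± 0.0205 of all counts. Flna, with a very long mRNA, supplied 43.2% ± 0.659 of that sum of CPM. On the scale of CPM per kilobase, where long transcripts no longer count for more, Fscn1 supplied 33.2% ± 1.61 and Flna 27.4% ± 0.733. The levels are RNA of a whole culture, in which fewer cells of a type and less RNA per cell cannot be told apart.

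**Figure D1:**
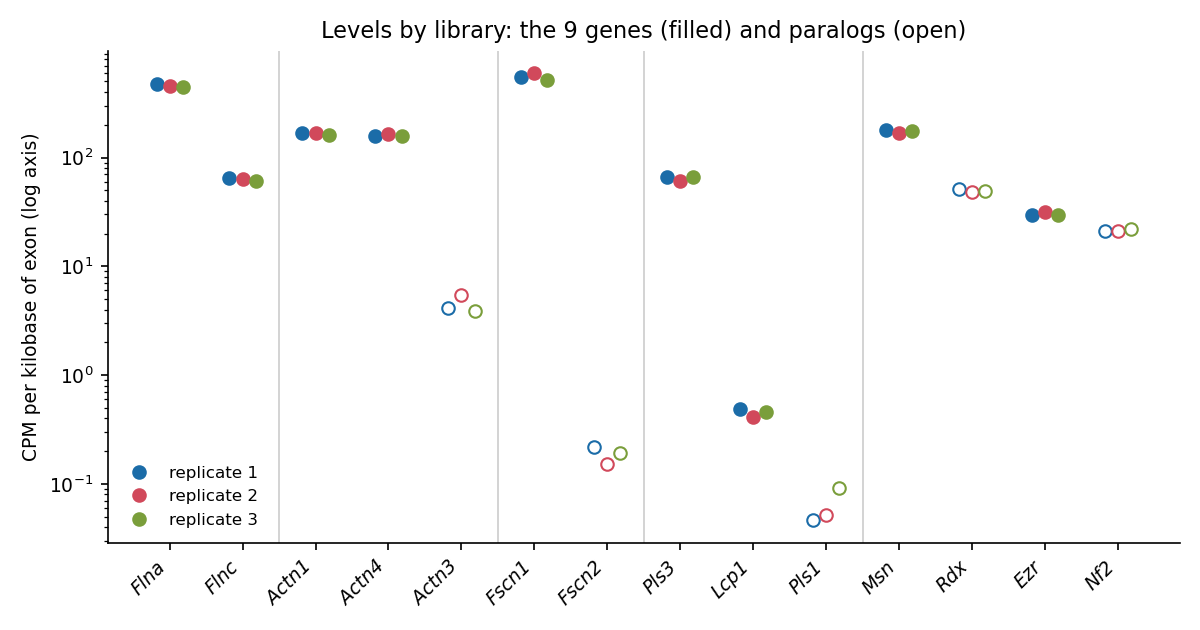
Level of each of the 9 genes (filled points) and of paralogs (open points) in each KO-actin library, in CPM per kilobase of exon on a log axis, with the replicates in different colours. Fscn1 and Flna lie at 449 or more in every library and Lcp1 at 0.487 or less, and Actn2 and Fscn3, with 0 counts in 2 of 3 libraries, are not drawn.

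In order of CPM per kilobase, Fscn1 came before Flna, Msn, Actn1, Actn4, Pls3, Flnc, Ezr and Lcp1. The 3 library values of neighbours overlapped for Msn and Actn1, for Actn1 and Actn4, and for Pls3 and Flnc, so the ranges of these neighbours did not separate, and the other neighbours did not overlap. Within a library, Actn1 was above Actn4 in 3 of 3, whereas Msn was above Actn1, and Pls3 above Flnc, in 2 of 3. The order also depended on the length used. With the longest transcript as the length, Actn4 (252 CPM per kilobase) came before Actn1 (246), still with overlap, and the other genes kept their places. With the longest coding sequence, Msn (641 ± 23.3) also moved above Flna (541 ± 14.0). Msn has 6327 exon bases for 577 encoded residues, whereas Flna has 9400 exon bases for 2647 residues. Fscn1 stayed first and Lcp1 last with all 3 lengths.

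**Figure D2:**
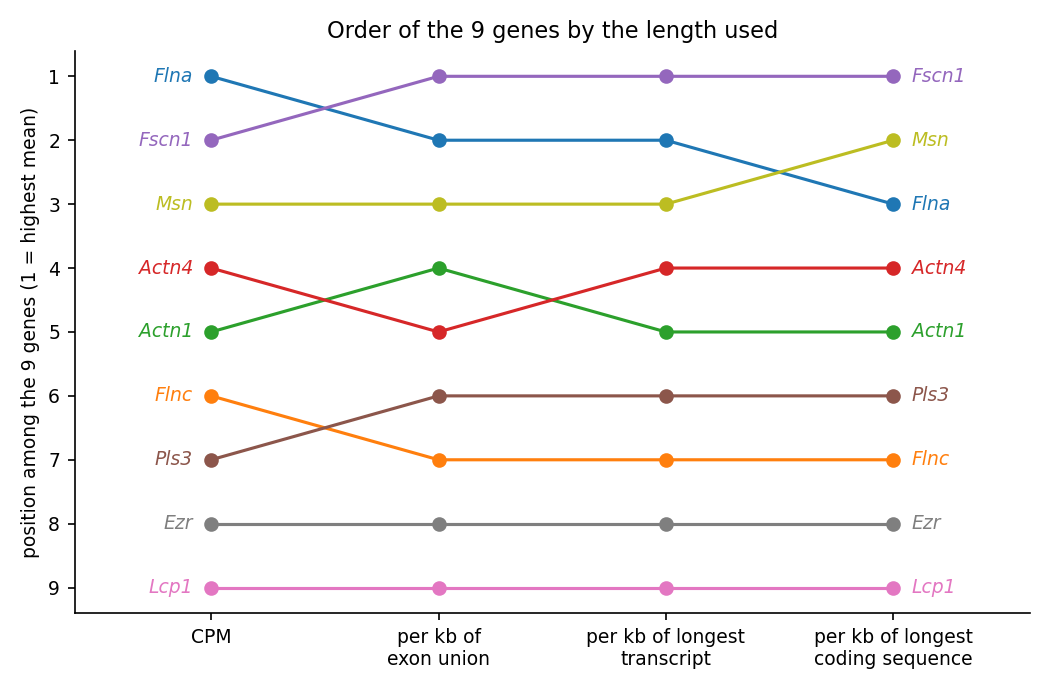
Position of each of the 9 genes by mean level over 3 libraries (1 is the highest), for CPM and for CPM per kilobase of all exon bases, of the longest transcript and of the longest coding sequence. Lcp1 is last in every column, Fscn1 leads all columns per kilobase, and Msn passes Flna with the coding sequence (641 against 541 CPM per kilobase).

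Filamin A was far more abundant than filamin C, the form best known from striated muscle. Flna (ENSMUSG00000031328, GRCm38 chromosome X, 74223461 to 74249820, minus strand) had 221025, 209952 and 188047 counts in replicates 1, 2 and 3. It has 47 exons in the transcript with its longest coding sequence, and exon numbers of the other genes are given likewise. The level of Flna was 4426, 4250 and 4221 CPM, and its mean of 457 ± 11.8 CPM per kilobase ranked 56 among 13776 genes with a known length. Replicate 1 was the highest and replicates 2 and 3 lay close together. Flnc (chromosome 6, 29433256 to 29461883, plus strand, 48 exons) had 30242, 29327 and 25663 counts, or 606, 594 and 576 CPM. Its mean was 62.9 ± 1.58 CPM per kilobase. The Flnc values fell in the same library order as those of Flna and varied as little, with a coefficient of variation of CPM of 2.51% against 2.58%.

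The level of Flna per kilobase was 7.27 times that of Flnc (7.16 to 7.33 over the libraries). Levels of 6 pairs of paralogs were compared in this way by an exact sign-flip permutation test, and every pair reached p = 0.25, two-sided, also 0.25 after Benjamini-Hochberg adjustment, which is the smallest p that 3 libraries allow. No pair can therefore pass a threshold of 0.05, and the range over the libraries is given instead. Of 10 muscle markers, 3 exceeded 3 counts in every library, and the summed level of all 10 was 10.1, 11.8 and 11.4 CPM, nearly all from desmin (Des, 10.4 ± 0.888 CPM). The muscle genes Myod1, Myog, Myf5, Myh3 and Ckm were at 0 counts in every library beside the Flnc level of 592 ± 14.9 CPM. This did not hold for every muscle gene. Smooth muscle α-actin (Acta2), which was not on the marker list, had 6606 ± 73.2 CPM, whereas Myh11, which was on it, had 3, 7 and 6 counts.

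Both non-muscle α-actinins were present at nearly equal levels. Actn1 (chromosome 12, 80167547 to 80260371, minus strand), the actinin of stress fibres and focal adhesions, had 46267, 46017 and 40013 counts, or 927, 931 and 898 CPM. Actn4 (chromosome 7, 28893248 to 28962340, minus strand), the form also found at the leading edge and in the nucleus, had 48230, 49392 and 42895 counts, or 966, 999.8 and 963 CPM. Actn1 was lowest in replicate 3, whereas Actn4 was highest in replicate 2 with the other two close together. Per kilobase, Actn1 stood at 166 ± 3.25 CPM and Actn4 at 159 ± 3.35, a ratio of Actn4 to Actn1 of 0.959 (0.941 to 0.969). The direction turned with the length. The log2 ratio of Actn4 to Actn1 was -0.06 ± 0.02 with all exon bases, 0.03 with the longest transcript and 0.02 with the coding sequence. These data do not order the 2 genes. Actn1 held 50.3% ± 0.469 and Actn4 48.3% ± 0.374 of the actinin CPM per kilobase.

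The muscle actinins were minor. Actn3 had 12.0, 15.8 and 11.2 CPM, which was 1.35% ± 0.231 of the family per kilobase, and Actn2 had 0, 0 and 2 counts. Actn3 was highest in replicate 2.

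Fascin had the highest level per kilobase of the 9 genes and was also the one that varied most between libraries among those above 100 CPM. Fscn1 (chromosome 5, 142960343 to 142973185, plus strand) has a short gene of 5 exons that encodes 493 residues. Its counts were 83156, 88796 and 69361, or 1665, 1797 and 1557 CPM, and its mean was 1673 ± 120 CPM and 556 ± 40.0 CPM per kilobase, which ranked 40 per kilobase. The 3 libraries were well separated, with replicate 2 the highest and replicate 3 the lowest, and a coefficient of variation of 7.20%. Its paralogs, the retinal fascin Fscn2 (23, 16 and 18 counts) and the testis fascin Fscn3 (0, 1 and 0 counts), were low or under the floor of 3 counts that a count of 0 allows, and Fscn1 made up 99.97% of the family.

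Fscn1 is a neighbour of the deleted gene. It starts 53589 bases from Actb on chromosome 5, and 8 protein-coding genes lie within 250 kb of Actb, Actb included. Of these, Fscn1 had the highest level with 556 CPM per kilobase, above Actb with 405, and Tnrc18 followed with 27.5 ± 0.940. Fbxl18, which lies closest to Actb (7.69 kb), had 4.63 ± 0.108 CPM per kilobase. Rnf216, just beyond Fscn1, had 10.8 ± 0.217 and Wipi2 9.97 ± 0.0933. Slc29a4 had 11, 10 and 8 counts, and Olfr718-ps1 had 0 counts in every library. Fscn1 and Actb were thus the highest of the 8, and the 6 other genes lay at 27.5 CPM per kilobase or less. Reads of the transgene and of the endogenous Actb locus cannot be told apart, so the Actb value need not be the level of that locus.

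The plastin family was nearly all T-plastin. Pls3 (chromosome X, 75785654 to 75875182, minus strand, 16 exons), the plastin of solid tissues, had 14116, 12762 and 12487 counts. These were 283, 258 and 280 CPM, and the mean was 64.6 ± 3.17 CPM per kilobase. Replicate 2 was low and the other two nearly the same.

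Lcp1 (chromosome 14, 75131101 to 75230842, plus strand, 16 exons), the plastin of blood cells, had only 231, 195 and 195 counts. These were 4.63, 3.95 and 4.38 CPM, or 0.454 ± 0.0361 CPM per kilobase, and 87.6% of genes with a known length stood higher per kilobase. The coefficient of variation of Lcp1 was 7.96%, and counting error alone gives 6.95% at this depth. Pls3 exceeded Lcp1 by 142 times per kilobase (137 to 147), the widest of the 6 pairs. The log2 ratio was 7.15 with all exon bases, 6.23 with the longest transcript and 5.96 with the coding sequence. Pls3 held 99.2% ± 0.0341 of the plastins against 0.697% ± 0.0245 for Lcp1. The value for Lcp1 leans on its length, since its exons cover 9504 bases in all and its longest transcript 3841. With that transcript as the length, Lcp1 stood at 1.12 ± 0.0894 CPM per kilobase and Pls3 still held 98.6% of the family. Pls1, the plastin of epithelial brush borders, had 9, 10 and 16 counts.

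Blood markers were measured because of Lcp1. Of 12 such genes, 4 exceeded 3 counts in every library, and the summed level of all 12 was 11.4, 13.3 and 14.2 CPM. Cd68, a lysosomal protein that fibroblasts can also express, supplied 8.57 ± 1.39 CPM and Coro1a 3.63 ± 0.172. Spi1 (7, 12 and 14 counts) and Csf1r (16, 6 and 11) were the other two above 3 counts, and Lyz2 had 1, 12 and 2. Other defining blood genes were at or under the floor, with 0, 1 and 0 counts for Ptprc (CD45), 0 in every library for Tyrobp, 1, 0 and 0 for Adgre1 and 0, 1 and 0 for Cd52. The sum of the blood markers was lowest in replicate 1, where Lcp1 was highest, though Lcp1 did not vary beyond counting error. The part of other cells in the Lcp1 counts was not tested.

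Moesin led the ERM proteins. Msn (chromosome X, 96096042 to 96168552, plus strand, 13 exons) had 57065, 52575 and 49878 counts, or 1143, 1064 and 1120 CPM, with replicate 2 the lowest. Its mean was 175 ± 6.38 CPM per kilobase. Ezr (chromosome 17, 6738041 to 6782784, minus strand, 13 exons), the ERM protein of epithelial microvilli, had 4829, 5128 and 4375 counts, or 96.7, 104 and 98.2 CPM. Its mean of 30.3 ± 1.14 CPM per kilobase was the lowest of the 9 genes apart from Lcp1. Ezr was highest and Msn lowest in the same library, replicate 2, which made their ratio the most variable of the 6 pairs, at 5.79 times (5.33 to 6.14, log2 ratio 2.53 ± 0.11). The log2 ratio of Msn to Ezr was 3.20 with the longest transcript as the length and 3.50 with the coding sequence.

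Radixin (Rdx), the remaining ERM protein, lay between them at 49.8 ± 1.20 CPM per kilobase. Msn exceeded Rdx by 3.52 times (3.46 to 3.56), a log2 ratio of 1.82 that was 2.45 with the longest transcript as the length, and the ratio of Ezr to Rdx was 0.608 (0.576 to 0.649). Msn held 68.6% ± 0.797, Rdx 19.5% ± 0.110 and Ezr 11.9% ± 0.748 of the family per kilobase. The related tumour suppressor merlin (Nf2) reached 147 ± 3.89 CPM, or 21.5 CPM per kilobase. Epithelial markers were measured beside Ezr. Of 10, 4 exceeded 3 counts in every library. The summed level of all 10 was 81.9, 88.8 and 80.8 CPM, nearly all from the keratins Krt19 (44.1 ± 4.03 CPM) and Krt18 (37.9 ± 1.07 CPM). Epcam had 0, 1 and 0 counts, Cdh1 (E-cadherin) 4, 12 and 1, and Esrp1 0 in every library. The summed markers and Ezr were both highest in replicate 2, and the part of one in the other was not tested.

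**Figure D3:**
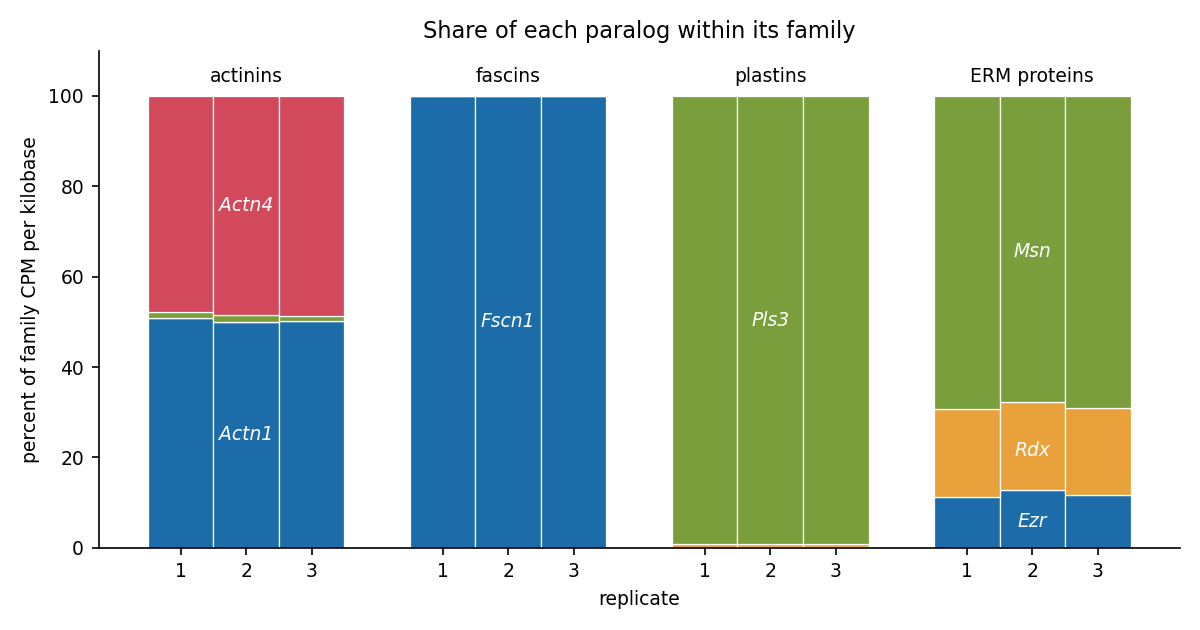
Share of each paralog in the summed CPM per kilobase of its family, as stacked bars for each of the 3 libraries, in percent, for actinins, fascins, plastins and ERM proteins. Pls3, Fscn1 and Msn each hold most of their family (99.2%, 99.97% and 68.6% on average), whereas Actn1 and Actn4 hold 50.3% and 48.3%.

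Genes that act with the ERM proteins were present at a wide range of levels. Of 18 partners and kinases found in the tables, 15 had a mean of at least 1 CPM, with a median of 17.3 CPM per kilobase over the list. The highest were Arhgdia (an inhibitor of small GTPases that binds ERM proteins, 562 ± 24.7 CPM per kilobase), Clic4 (74.7 ± 1.54) and the scaffold Slc9a3r1 (EBP50, 73.5 ± 7.002). Slc9a3r1 shared with Ezr and Fscn1 a high value in replicate 2 (157 CPM against 134 in both others). The adhesion receptors Icam1 (5, 3 and 1 counts) and Icam2 (2, 0 and 0 counts) and the leukocyte ligand Selplg (2, 8 and 7 counts) were near the floor. Other receptors of the list were well above it, such as the hyaluronan receptor Cd44 with 28.0 ± 1.17 CPM per kilobase and Podxl with 19.0 ± 0.460.

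Of 24 partners of filamins and actinins, 15 had at least 1 CPM, with a median of 11.6 CPM per kilobase. Csrp1, a LIM protein that binds actinin, had 276 ± 3.00 CPM per kilobase. Itgb1, the integrin β1 chain bound by filamin and actinin, had 203 ± 10.1, and zyxin (Zyx) had 84.9 ± 4.28. The muscle partners Myot, Xirp1 and Xirp2 were at 0 counts in every library. Ldb3, another muscle Z-disc gene of the list, had 35.8 ± 1.32 CPM, so low counts did not hold for every muscle partner.

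Other crosslinkers and linkers stood lower than most of the 9 genes. Among 37 other bundlers and crosslinkers, 26 had at least 1 CPM and the median was 5.11 CPM per kilobase. The highest was Lima1 (EPLIN) with 93.7 ± 0.954, then cortactin (Cttn) with 74.4 ± 0.862 and Dbnl with 71.8 ± 3.62. Fscn1, Flna, Msn, Actn1 and Actn4 all lay above every one of these 37 genes. Among 21 other membrane linkers, 19 had at least 1 CPM and the median was 5.37, led by the membrane motor Myo1c (159 ± 5.09), talin (Tln1, 92.4 ± 2.56) and vinculin (Vcl, 61.8 ± 0.676).

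Structural partners of filaments were higher. Tropomyosins, calponins and transgelins had a median of 239 CPM per kilobase with 10 of 10 above 1 CPM (Tpm4 524 ± 19.8, Cnn2 399 ± 9.41, Tagln 390 ± 4.62). The Arp2/3 subunits, which nucleate branched filaments, had a median of 88.6 with 9 of 9 above 1 CPM (Arpc2 205 ± 4.97, Arpc5 162 ± 1.70, Actr3 126 ± 5.38). The median of the 9 genes, 159 CPM per kilobase, lay between those of these lists. The lists differ in size and were not chosen at random, so these medians are descriptions.

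**Figure D4:**
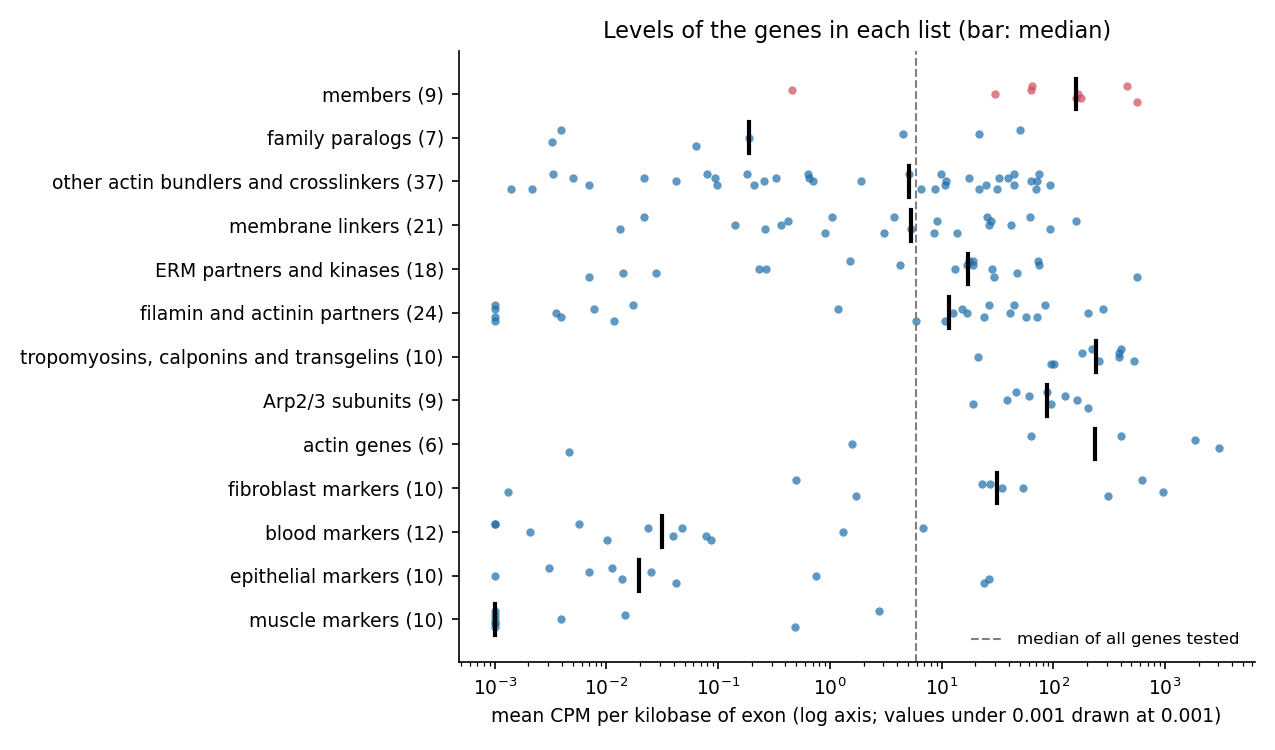
Mean level over 3 libraries of every gene in the set of 9 and in each related or marker list, in CPM per kilobase on a log axis, with the list median as a black bar and the median of all tested genes (5.88) as a dashed line. The 9 genes have a median of 159 CPM per kilobase, between the tropomyosin list (239) and the Arp2/3 subunits (88.6), against 5.11 for the other bundlers and 5.37 for the membrane linkers.

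Set against the 6 actin genes, the sum of the 9 genes was 31.3 ± 0.279 per 100 of actin by CPM per kilobase, and it differed little between libraries (31.1, 31.6 and 31.1). Fscn1 stood at 10.4 per 100 of actin, Flna at 8.56, Msn at 3.28, Actn1 at 3.11 and Actn4 at 2.98. Pls3 stood at 1.21, Flnc at 1.18, Ezr at 0.566 and Lcp1 at 0.00850. The actin sum was mainly Acta2 (smooth muscle α-actin, 3008 ± 33.3 CPM per kilobase) and Actg1 (1868 ± 87.1). Actg1 shares 56.7% of its windows of 50 bases with other genes, mainly pseudogenes, and Actb shares 14.2%. Without Actg1 the sum of the 9 genes was 48.1 per 100, which also drops the reads of Actg1 itself and is not a corrected ratio. These are ratios of RNA, not of protein.

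Differences between the 3 libraries were small in size and, for most of the 9 genes, larger than counting error. The chi-square test on counts with Benjamini-Hochberg adjustment called 8 of 9 genes, all but Lcp1 (adjusted p = 0.359), against 43.8% of the 13814 genes tested. Power rises with counts, and among the 2613 genes that averaged 100 CPM or more the test called 75.2%, and 7 of 7 of the genes described here. Per degree of freedom the chi-square was 407 for Fscn1, 139 for Flna and 72.6 for Msn, whereas it was 6.91 for Ezr (adjusted p = 0.00365). The ratio of the highest to the lowest library was 1.04 to 1.17. In 0 of 9 genes did it pass 1.5, against 9.58% of the genes tested. That share includes genes with few counts, and 0 of 9 does not set these genes apart from it. The median SD of log2 CPM was 0.05 for the 9 genes, also 0.05 for genes with at least 100 CPM, and 0.08 for all tested genes. When the common dispersion between libraries (a biological coefficient of variation of 5.24%) was added to counting error, the chi-square test called 0 of 9 genes, against 0.702% of all genes. At an unadjusted p under 0.05 it also called 0 of 9, against 9.74% of all genes. That dispersion was estimated from these same 3 libraries and was 3.02% without replicate 2. Few calls therefore follow from how it was set, and the 0 of 9 is no separate evidence about these genes. The call of 8 of 9 held with DESeq2 size factors or total counts (43.9% of genes in both), from 100 counts (51.7%) or from a count in any library (25.9%), after thinning to the smallest total (42.0%) and without replicate 1 (32.9%), and without replicate 3 the test called 7 of 9 (34.1%), all but Actn1 and Lcp1.

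Replicate 2 lay farthest from the mean for 6 of 9 genes, and over all genes its deviation followed base composition. On the log2 scale, replicate 2 deviated from the mean of the 3 by 0.11 for Fscn1, whose mRNA has 60.6% GC, and by 0.06 for Ezr (52.8%). It deviated by -0.08 for Pls3 (43.7% GC), -0.06 for Msn (47.7%) and -0.13 for Lcp1 (47.4%). Several genes departed from this order. Flnc (58.4% GC) deviated by 0.00 where the median of genes with like GC was 0.07. Flna (54.0%) deviated by -0.02 where that median was 0.04. Lcp1, with few counts, lay farthest of the 9 genes from that median, which was -0.02 at its GC content. Ezr lay above Actn4, which has 55.4% GC and deviated by 0.03. Over all genes the median deviation of replicate 2 went from -0.07 where GC was up to 45% to 0.11 where it exceeded 60%. Across the 9 genes, which share the same libraries and are not independent, GC content and the replicate 2 deviation had a Pearson correlation of 0.83 and a Spearman correlation of 0.733. After the median of genes with like GC was taken off, the SD of log2 CPM was smaller in 7 of 9 genes and its median was 0.03. The chi-square test then called 5 of 9 genes (29.9% of all genes), and without replicate 2 it also called 5 of 9 (12.5% of all genes), with Actn4, Pls3, Lcp1 and Ezr not called in either case. Replicate 3 was low for Fscn1, with a deviation of -0.10 where the median of genes with like GC was -0.05. The high Fscn1 and low Pls3 values of replicate 2 thus moved with GC content, and the cause of that relation was not tested.

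**Figure D5:**
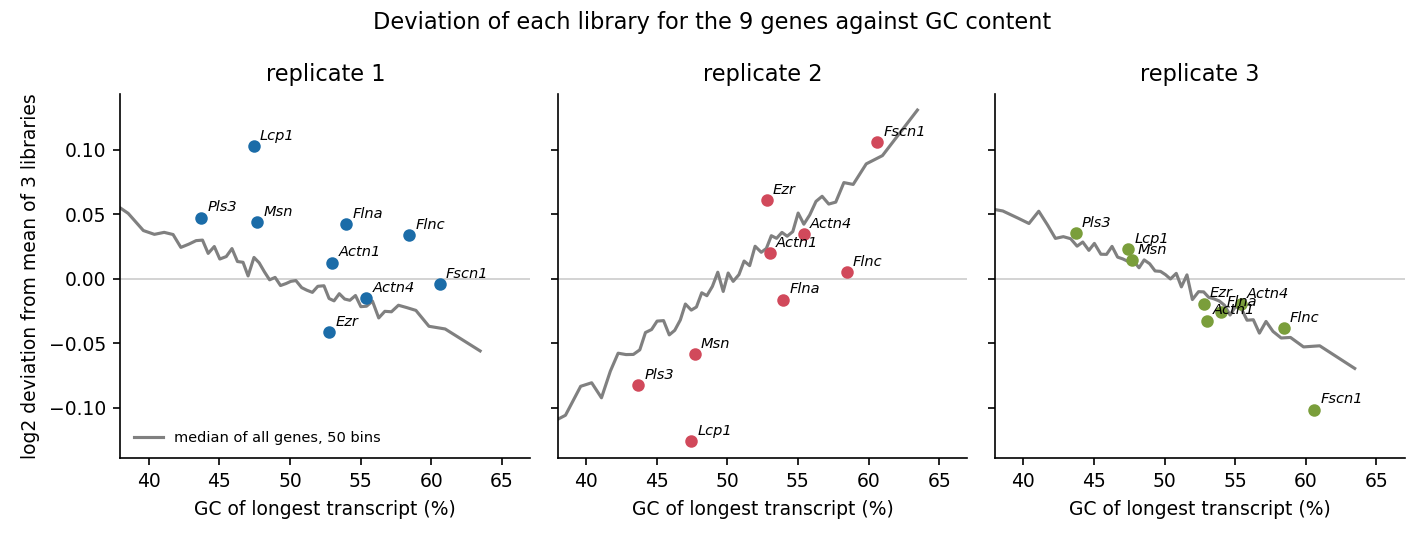
Log2 CPM of each library minus the mean of the 3 libraries, against the GC content of the longest transcript in percent, with 1 panel per replicate, the 9 genes as points and the median of all genes in 50 bins of GC content as a line. In replicate 2 the line rises with GC content, Fscn1 (60.6% GC) lies at 0.11 and Pls3 (43.7% GC) at -0.08.

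Sequence shared with other genes was low along the transcript of each gene with the longest coding sequence. Exons outside that transcript were not searched. For Lcp1 that transcript has 2523 bases, whereas all exons cover 9504. None of the windows of 50 bases along that transcript of Flna, Flnc, Fscn1, Pls3 or Msn occurred in the transcripts of another gene. The share was 0.460% for Actn4 and 0.193% for Ezr, both 0 with windows of 100 bases. Lcp1 shared 11.4% of 50-base windows but 0.949% of 100-base windows, mainly with the pseudogene Gm6201. Actn1 shared 10.2% and 7.26%, mainly with the antisense gene Gm47766. Counts of Gm6201 and Gm47766 were not analysed here. Exons of Actn4 overlapped Capn12 over 5.16% of their bases, and Capn12 had 8, 4 and 3 counts. Exons of Lcp1 overlapped Gm15628 and Gm15629 over 5.58% of their bases, and those of Msn overlapped Gm24718 over 2.15%. Gm15628 and Gm24718 had 0 counts in every library. Exons of Ezr overlapped Sytl3 over 0.122%, and Sytl3 had 2, 0 and 1 counts. The search for overlaps covered only genes of the count tables, and among these no exon overlapped the exons of Actn1. Whether Gm47766 was among the genes searched was not examined. Whether counting used the strand, and how it treated reads matching several genes, is not given in the sources used here.

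By position, 3 of 9 genes (Flna, Pls3 and Msn, 33.3%) lie on chromosome X, against 3.17% of 12087 tested protein-coding genes.

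For each gene the nearest level profile was sought as the smallest distance in log2 CPM per kilobase over the 3 libraries among 12074 protein-coding genes. The nearest to Flna was Bsg (distance 0.10), to Flnc Actg2 (0.04), to Actn1 Rpl37 (0.06), to Actn4 Myo1c (0.04), to Fscn1 Mif (0.05), to Pls3 Etf1 (0.04), to Lcp1 Gjb5 (0.09), to Ezr Dcps (0.01) and to Msn Thbs1 (0.03). With 3 libraries of 1 condition this likeness is mainly likeness of level. Mif, which stood at 540, 611 and 517 CPM per kilobase, also had the replicate 2 peak of Fscn1 (553, 597 and 517).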

How the data were processed

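Polyadenylated RNA of 3 KO-actin libraries was measured. The values deposited by the authors are raw read counts, 1 per Ensembl gene and library, without normalization. The submitters' processing notes name Trimmomatic, FastQC, HISAT2 and HTSeq and the build mm10/GRCm38. Annotation release, strand setting, read length and the treatment of reads matching several genes are not given in the sources used here.

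Gene identifiers were matched to GENCODE M21 on GRCm38 for 46091 of 46603 genes. Counts were scaled by TMM in edgeR 4.0.16 (R 4.3.3) on the 13814 genes that reached 10 counts in each library, and DESeq2 1.42.0 size factors were an alternative. Counts of each gene in the 3 libraries were compared with their expectation by chi-square (2 degrees of freedom), with p adjusted by Benjamini-Hochberg over all tested genes and a threshold of 0.05. The procedure was tested on simulated data for 13814 genes. Paralogs were compared by an exact sign-flip permutation test of log2 ratios. Python 3.11.15, numpy 2.4.6, pandas 2.3.3, scipy 1.17.1 and matplotlib 3.10.9 were used. Alternatives changed scaling, length, filter, GC correction, dispersion, depth and libraries. At these depths 3 counts, the limit that a count of 0 allows, equal 0.0601 to 0.0673 CPM, for counting error only.

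The genes and lists were chosen with earlier results of these data known. Named genes were the 9 genes, their paralogs (1 of which is not reported here, nor the shares and ratio that need it), the 3 highest genes of each list per kilobase with cell type markers at or under the floor, the nearest profile of each gene, and the protein-coding genes near Actb. Of other list genes, Ldb3, Cd44, Podxl, Csf1r, Lyz2, Selplg, Icam1, Icam2, Myot, Xirp1, Xirp2 and Cdh1 were named after their values were seen.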

Additional observations from a re-analysis of the deposited data

How the results depend on the processing

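Other scalings moved the mean level of no gene among the 9 by more than 0.0175%. In such a mean over 3 libraries, shifts of single libraries largely cancel. With DESeq2 size factors the replicate 2 log2 deviation of Flna went from -0.016 to -0.013. Of 9 genes, 8 varied beyond counting error in all libraries, 5 to 8 when leaving out each replicate in turn (lowest without replicate 2), 5 within bins of GC content and 0 with the common dispersion added. Other scalings, count filters and thinning to the smallest library left 8. The log2 ratio of Actn4 to Actn1 turned from -0.06 to 0.033 with transcript length, 0.024 with coding length and 0.087 with no length. Family shares that moved were Actn1 49.0%, Pls3 98.6% and Msn 77.4% with transcript length, and Actn1 48.2%, Fscn1 99.98%, Pls3 98.4% and Msn 77.0% by CPM. The genes per 100 of actin became 48.1 without Actg1 and 29.0 with coding length. The replicate 2 log2 deviation, less its GC bin median, turned to -0.070 for Flnc, -0.013 for Actn1 and -0.0075 for Actn4. Of 24 list counts under another rule, 21 stayed within 1.5 times, and family paralogs went from 3 to 5, blood markers from 2 to 4 and muscle markers from 1 to 3 with the rule of more than 3 counts in every library. Among the 9 genes and their paralogs, depth limited only Lcp1 and the minor paralogs. It also limited the marker and partner genes near the floor. No paired analysis was possible because the series holds 1 condition, so no groups share replicate numbers. Ratios of paralogs were taken within each library.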
